A study of Homo sapiens with 9 samples.

Results

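The RNAs described here are RMRP, RPPH1, RN7SK, RN7SL1, RN7SL2 and TERC, short noncoding RNAs that fold into fixed structures and work inside protein complexes. They were taken by symbol from the gene table, where 6 of the 7 RNAs named for this account have a row, out of 56541 genes. VTRNA1-1, a vault RNA, is the seventh and is not analysed here. The RNAs were selected on values already seen in these data, namely the low recovery of RMRP and RN7SL2 with BCLAF1 and the abundance of the set, leaving out small nucleolar and small nuclear RNAs. The precipitation values of these 6 RNAs are therefore given as a description with no test, while other genes carry the test of that contrast.

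RNA was measured in MOLM-13, a human acute myeloid leukaemia cell line, in 3 groups of 3 libraries. All cells, controls included, were cultured for 4 days with doxycycline at 200 ng/µL. Total RNA of the cells was sequenced in shCONTROL, which carries a control hairpin, and in shBCLAF1, which carries a hairpin against the nuclear RNA-binding protein BCLAF1. The third group, RIP, holds the RNA that came down with BCLAF1 from cells with the control hairpin. More cells were collected for RIP than for RNA-seq, the labels put all libraries in batch 1, and they name no mock precipitation and no number of hairpins or clones.

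The libraries held 25819144 to 36635268 estimated counts. The lowest total belonged to RIP replicate 1. The myeloid genes CD33, MPO, FLT3, SPI1, CEBPA, LYZ and PTPRC were at 76.9 or more CPM (counts per 1000000 counts of the library, after scaling) in all 6 RNA-seq libraries, and KIT was at 0. Erythroid and fibroblast markers were at 0, epithelial markers summed to at most 3.65 CPM and B-cell markers to at most 3.33. Of the 4 T-cell markers, CD3E and CD8A were at 0, CD3D reached 11.9 CPM, and CD4, which monocytic cells also express, lay between 83.8 and 91.1 CPM. BCLAF1 itself measured 325, 329 and 313 CPM in shCONTROL and 116, 125 and 100.005 in shBCLAF1, so its mRNA was lower in every library labelled as knock-down (log2 fold change -1.50, SE 0.08, adjusted p 2.06e-04).

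Most of these RNAs are made by RNA polymerase III. RMRP and RPPH1 are the RNA parts of RNase MRP and RNase P, related enzymes that share most of their proteins; RNase MRP cuts precursor ribosomal RNA, and RNase P trims the 5′ end of precursor tRNA. RN7SK, or 7SK, holds the kinase complex P-TEFb in an inactive state through HEXIM proteins, and so limits the release of paused RNA polymerase II. RN7SL1 and RN7SL2 are near-identical copies of 7SL, the RNA of the signal recognition particle, which brings ribosomes to the endoplasmic reticulum. TERC is the template RNA of telomerase and, unlike the others, is made by RNA polymerase II.

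By the RefSeq annotation of GRCh38.p14, RMRP lies at chr9:35657750-35658019, RPPH1 at chr14:20343071-20343411 and RN7SK at chr6:52995620-52995951. The 7SL copies lie at chr14:49586580-49586878 (RN7SL1, within the span of the ribosomal protein gene RPS29) and chr14:49862551-49862849 (RN7SL2, within that of the noncoding LOC105378179). TERC lies at chr3:169764610-169765060, where no other annotated gene overlaps it. No other gene overlaps RMRP, RPPH1 or RN7SK either. Lengths run from 270 bases for RMRP to 451 for TERC, with 299 for both 7SL copies, 332 for RN7SK and 341 for RPPH1.

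RMRP and RPPH1 are each annotated a short distance from a protein-coding gene that is read in the opposite direction, so each pair has its starts on the 2 sides of a single short stretch. RPPH1 and PARP2, a DNA-repair enzyme gene, start 224 bases apart, and RMRP and CCDC107 start 273 bases apart. The stretches are shown because neighbours that share them gave different values in these libraries, as described below. They come from RefSeq's promoter windows of PARP2 and CCDC107 (GRCh38.p14, plus strand, 5′ to 3′), at chr14:20343412-20343634 for PARP2, the whole of the gap, and chr9:35658042-35658291 for CCDC107, the part of the gap that its window holds. Capitals mark the letters ATTTGCAT (the octamer bound by OCT1, the product of POU2F1) and TATAA, each searched on both strands.
RPPH1 to PARP2: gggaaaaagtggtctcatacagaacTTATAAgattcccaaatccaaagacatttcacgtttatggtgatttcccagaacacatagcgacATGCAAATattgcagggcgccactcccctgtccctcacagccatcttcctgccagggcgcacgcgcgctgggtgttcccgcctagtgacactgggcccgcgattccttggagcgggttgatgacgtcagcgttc
RMRP to CCDC107: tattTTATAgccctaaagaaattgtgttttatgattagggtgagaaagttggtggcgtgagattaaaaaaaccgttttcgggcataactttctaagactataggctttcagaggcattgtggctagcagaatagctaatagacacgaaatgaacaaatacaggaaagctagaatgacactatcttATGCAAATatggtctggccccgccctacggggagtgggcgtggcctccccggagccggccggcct

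Both stretches hold the octamer, read on the minus strand and so printed as ATGCAAAT, 90 bases upstream of RPPH1 and 208 bases upstream of RMRP at its nearest base. Both also hold TATAA on the minus strand, printed as TTATA, 26 bases upstream of RPPH1 and 27 bases upstream of RMRP. In the RPPH1 stretch this match overlaps a plus-strand match of TATAA by 4 of its 5 letters. Among 35116 promoter windows of 300 bases, 1.77% hold the octamer, 20.4% hold TATAA and 0.575% hold both. These are matches of letters and not measured binding sites.

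In the control cells these RNAs, apart from TERC, were among the most abundant of the libraries. Abundance was part of how the set was selected, so it is given as a description only. The 6 RNAs took 4.49%, 4.65% and 4.72% of all counts in the shCONTROL libraries, and RN7SK ranked first of all named genes in each of the 9 libraries. Levels can be compared between RNAs only per length, and per kilobase of annotated RNA the order in shCONTROL was RN7SK, RN7SL1, RPPH1, RN7SL2, RMRP and TERC. RN7SK stood at 60540 ± 2036 CPM per kilobase, RN7SL1 at 30173 ± 1878 and RPPH1 at 26614 ± 2163 (SD, n = 3 each). RN7SL2 followed at 15882 ± 1313, RMRP at 9552 ± 337 and TERC at 35.7 ± 1.96 CPM per kilobase (SD, n = 3 each). No neighbours in this order overlapped, the closest being RN7SL1, whose lowest library held 28635 CPM per kilobase, and RPPH1, whose highest held 27866. The split of 7SL between its 2 copies rests on how reads that match both were shared, so their sum, and not their order, is the firmer value.

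**Figure D1:**
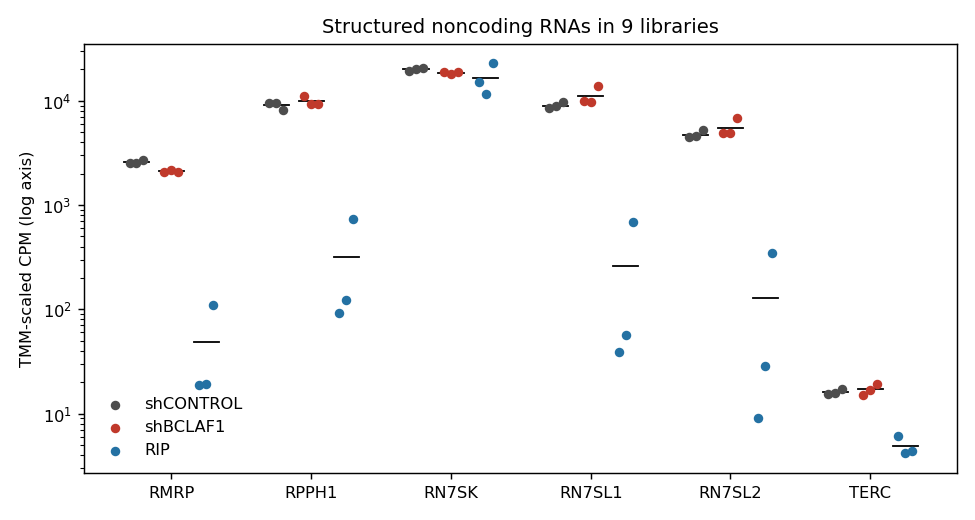
TMM-scaled CPM (log axis) of the 6 RNAs in each library, with a bar at each group's mean. The RIP points lie under the RNA-seq points for all but RN7SK, and RIP replicate 3 is the highest RIP point for all but TERC.

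The RIP libraries set what came down with BCLAF1 against what the same kind of cells held. Of the 6 RNAs, 5 had a fitted log2 fold change of -1 or less in the RIP against shCONTROL, as did 19.9% of the 16727 genes tested. This contrast chose the RNAs, and nothing is read from that count. RN7SK was the exception, and what follows is the level of each RNA in each RIP library.

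RMRP, the RNase MRP RNA, measured 2514, 2540 and 2683 CPM in shCONTROL replicates 1, 2 and 3 and 19.0, 19.3 and 109 CPM in the RIP replicates. The RIP libraries thus held 0.737%, 0.750% and 4.22% of the shCONTROL mean. The groups were far apart, the fitted log2 fold change was -5.71 (SE 0.85), and RMRP ranked 6 from the lowest of the genes tested. RPPH1, the RNase P RNA, measured 9502, 9500 and 8224 CPM in shCONTROL and 92.3, 122 and 735 in the RIP, or 1.02%, 1.35% and 8.10% of the shCONTROL mean. The fitted log2 fold change of RPPH1 was -4.84 (SE 0.92). Both enzymes' RNAs were thus low in all RIP libraries and highest in RIP replicate 3.

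RN7SL1, the more abundant 7SL copy, measured 8562, 8856 and 9647 CPM in shCONTROL and 39.0, 56.4 and 689 in the RIP. RN7SL2 measured 4470, 4578 and 5198 CPM in shCONTROL and 9.02, 28.4 and 344 in the RIP. Neither copy's groups overlapped, and the RIP replicates were spread more widely for 7SL than for any other of these RNAs. The fitted log2 fold changes were -5.11 (SE 1.26) for RN7SL1 and -5.22 (SE 1.42) for RN7SL2, and -5.15 for the summed copies. The ratio of RN7SL2 to RN7SL1 counts was 0.517 to 0.539 in shCONTROL, 0.504 and 0.4995 in RIP replicates 2 and 3, and 0.231 in RIP replicate 1, where RN7SL2 had 232 counts and RN7SL1 had 1004.

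RN7SK, the 7SK RNA, measured 19378, 20202 and 20718 CPM in shCONTROL and 15172, 11717 and 22823 CPM in the RIP. The RIP libraries held 75.5%, 58.3% and 114% of the shCONTROL mean, so the groups overlapped, with RIP replicate 3 above all shCONTROL libraries. The fitted log2 fold change was -0.27 (SE 0.26), and -0.39 when libraries were scaled by their total counts, which moved the median of all genes from -0.05 to -0.16. RN7SK made up 43.6% to 44.6% of the counts of the 6 RNAs in shCONTROL and 98.9%, 98.1% and 92.4% in RIP replicates 1, 2 and 3.

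TERC, the telomerase RNA, measured 15.5, 15.6 and 17.1 CPM in shCONTROL and 6.10, 4.15 and 4.39 CPM in the RIP. Its RIP libraries held 38.0%, 25.8% and 27.3% of the shCONTROL mean, with a fitted log2 fold change of -1.70 (SE 0.18). TERC lay between RN7SK and the other 4 RNAs in recovery, and it was the only RNA of the 6 that was not highest in RIP replicate 3.

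**Figure D2:**
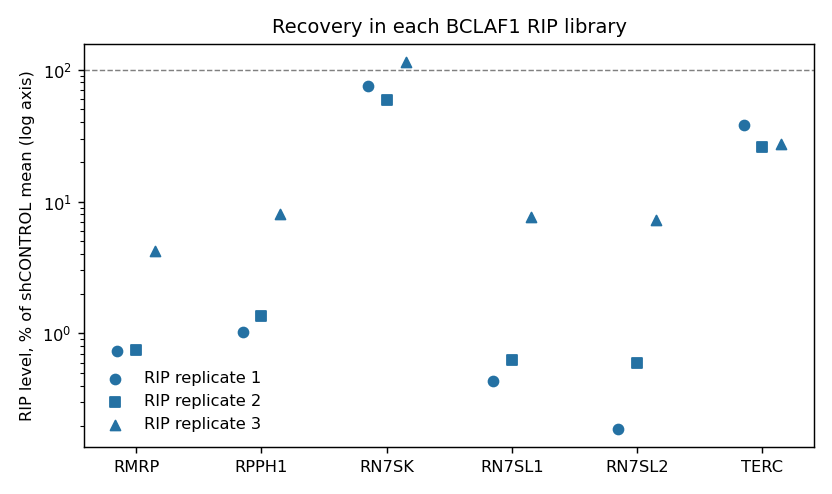
Level of each RNA in each RIP library as a percentage of the shCONTROL mean (log axis, dashed line at 100%). RN7SK lies between 58.3% and 114%, TERC between 25.8% and 38.0%, and the other 4 RNAs under 10%, with RIP replicate 3 (triangles) above the others for all but TERC.

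RIP replicate 3 stood apart for most of these RNAs. Relative to the mean of RIP replicates 1 and 2, it held 5.68-fold the RMRP, 6.85-fold the RPPH1, 14.5-fold the RN7SL1 and 18.4-fold the RN7SL2, against 1.70-fold the RN7SK and 0.856-fold the TERC. Without RIP replicate 3 the fitted log2 fold changes were -7.05 for RMRP, -6.39 for RPPH1, -7.55 for RN7SL1 and -7.96 for RN7SL2. RN7SK then stood at -0.57 and TERC at -1.63, so the order of RN7SK, TERC and the rest was the same with and without that library. Small nucleolar RNAs summed to 183, 94.2 and 147 CPM in RIP replicates 1, 2 and 3, against 1117 to 1239 in shCONTROL. Small nuclear RNAs summed to 54.7, 66.3 and 82.3 CPM, against 156 to 162. RIP replicate 3 was thus the highest for the small nuclear RNAs and the middle value for the nucleolar ones. The totals of RIP replicates 2 and 3 were 31568985 and 31455005 counts. What set RIP replicate 3 apart was not tested.

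Other short RNAs were counted for comparison. Of 89 small nucleolar and Cajal-body RNAs tested, 38 (42.7%) passed as depleted in the RIP and 3 as enriched. Of 32 small nuclear RNAs, taken by symbol, 15 (46.9%) passed as depleted and 0 as enriched. Over all genes tested, 13.5% were depleted and 11.0% enriched at an adjusted p under 0.05 with a change of 1 or more on the log2 scale (edgeR quasi-likelihood test). The median log2 fold change was -0.99 for the nucleolar RNAs and -1.01 for the small nuclear RNAs, against -0.05 for all genes and -4.98 for the 6 RNAs, which were selected on this contrast. The cytoplasmic Y RNA RNY1 measured 24.3, 24.8 and 27.8 CPM in shCONTROL and 0.700, 0.352 and 2.63 in the RIP (log2 fold change -4.31, SE 0.69, adjusted p 0.00343). RNY1, like RMRP and 7SL, was lowest in RIP replicates 1 and 2 and highest in RIP replicate 3.

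RN7SL3 and the 7SL pseudogenes share sequence with the main copies, and which gene their reads came from is uncertain. The main copies belong to the set selected on this contrast, so the 7SL calls below are not separate from that choice. RN7SL3 measured 204, 199 and 223 CPM in shCONTROL and 0.622, 1.55 and 18.7 in the RIP, the same order of RIP libraries as the main copies. Summed, the 7SL pseudogenes measured 24.4, 17.2 and 12.0 CPM in RIP replicates 1, 2 and 3. Unlike the main copies, their sum was thus lowest in RIP replicate 3. Of 43 7SL pseudogenes tested in the RIP, 11 (25.6%) passed as depleted and 1 (2.33%) as enriched, beside 13.5% and 11.0% of all genes tested. The enriched one, RN7SL832P, measured 1.02 to 1.20 CPM in shCONTROL and 2.57 to 3.42 in the RIP (log2 fold change 1.39, adjusted p 0.00347). RN7SL4P and RN7SL471P, the most abundant 7SL pseudogenes of those named, stood at -4.43 (adjusted p 3.86e-04) and -4.55 (adjusted p 6.03e-04). RN7SL5P had 0 counts in all 3 RIP libraries, so it passed the filter on low counts only through shCONTROL. Of 20 7SK pseudogenes, 4 (20.0%) passed as depleted and 0 as enriched. The most abundant of them, RN7SKP255, measured 7.06 to 7.53 CPM in shCONTROL and 13.2, 7.17 and 14.1 in the RIP, where it did not pass (adjusted p 0.0778).

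The knock-down comparison asks which of these RNAs differ when BCLAF1 is lowered. It shares its shCONTROL libraries with the precipitation, and it was not the contrast that selected the RNAs. RMRP fell and the other 5 did not pass, so 1 of the 6 was called, against 32.3% of the 16961 genes tested. The labels do not say whether replicates were separate cultures, and the p-values measure only the spread between these libraries. In RNA from whole cultures, fewer cells of a kind and less RNA per cell cannot be told apart.

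RMRP, at 2514, 2540 and 2683 CPM in shCONTROL, measured 2093, 2151 and 2061 CPM in shBCLAF1. Every knock-down library lay under every control library, at 81.1%, 83.4% and 79.9% of the control mean. RMRP thus changed by -0.30 on the log2 scale (SE 0.04, adjusted p 0.00298 by edgeR over all genes tested). The call was absent from a single fit of all 9 libraries (log2 fold change -0.30, adjusted p 0.847), in which the RIP libraries, 5.68-fold apart in RMRP, enter the estimate of the spread. With any 1 of the 6 RNA-seq libraries left out, the log2 fold change ran from -0.31 to -0.26 and the adjusted p from 0.00917 to 0.0121.

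RPPH1 measured 9502, 9500 and 8224 CPM in shCONTROL and 11125, 9263 and 9352 in shBCLAF1. The groups overlapped, and the log2 fold change of 0.13 (SE 0.09, adjusted p 0.363) did not pass. RMRP and RPPH1 share proteins, and their ratio within a library does not depend on scaling. The ratio of RMRP to RPPH1 counts was 0.265, 0.267 and 0.326 in shCONTROL and 0.188, 0.232 and 0.220 in shBCLAF1. The mean ratio after knock-down was 0.746 of that in controls, with no overlap (exact two-sided permutation test, p = 0.1, the smallest that 3 against 3 can give). Every other ratio computed gave the same p, that of the 2 7SL copies to each other included, so the separation is not particular to RMRP and RPPH1.

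RN7SK measured 18948, 18141 and 18910 CPM in shBCLAF1, under the 19378 to 20718 of shCONTROL, at 90.3% to 94.3% of the control mean. The groups did not overlap on this TMM scale, but the difference was small (log2 fold change -0.11, SE 0.04) and did not pass (adjusted p 0.115). As shares of all counts the groups did overlap, at 1.96% to 2.10% in shCONTROL and 1.90% to 2.03% in shBCLAF1. DESeq2 did call it (adjusted p 0.00606, log2 fold change -0.11), and under total counts in place of TMM the log2 fold change was -0.06 (adjusted p 0.389). Against RN7SK as the reference in each library, the ratio of RMRP was 0.128 ± 0.00223 (SD, n = 3) in controls and 0.113 ± 0.00517 (SD, n = 3) after knock-down, with no overlap (exact two-sided permutation test, p = 0.1).

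RN7SL1 measured 9992, 9642 and 13876 CPM in shBCLAF1, and RN7SL2 measured 4891, 4915 and 6789. The first 2 replicates lay near the control libraries, and replicate 3 stood above all others for both copies. The log2 fold change was 0.31 (SE 0.15, adjusted p 0.170) for RN7SL1, 0.22 (SE 0.14, adjusted p 0.305) for RN7SL2 and 0.28 (adjusted p 0.206) for the summed copies, and none passed. Without shBCLAF1 replicate 3 it was 0.12 for RN7SL1 and 0.05 for RN7SL2. The ratio of summed 7SL to RN7SK counts was 0.673, 0.665 and 0.717 in shCONTROL and 0.786, 0.802 and 1.09 in shBCLAF1, which did not overlap (exact two-sided permutation test, p = 0.1). The ratio of RN7SL2 to RN7SL1, whose split is uncertain, did not overlap either. It was 0.517 to 0.539 in shCONTROL and 0.489 to 0.510 in shBCLAF1 (exact two-sided permutation test, p = 0.1). The 7SL pseudogenes summed to 69.7, 72.5 and 109.7 CPM in shBCLAF1 replicates 1, 2 and 3 and to 60.6 to 73.6 in shCONTROL, so they too were highest in shBCLAF1 replicate 3.

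TERC measured 15.1, 16.8 and 19.2 CPM in shBCLAF1 against 15.5 to 17.1 in shCONTROL. The groups overlapped, and the log2 fold change was 0.08 (SE 0.11, adjusted p 0.608). It was -0.01 without shBCLAF1 replicate 3. RNY1 fell to 20.2, 18.7 and 21.3 CPM in shBCLAF1 (-0.35 on the log2 scale, SE 0.08, adjusted p 0.0216), a call that was lost without shCONTROL replicate 3 or without shBCLAF1 replicate 1 or 2 (adjusted p 0.0729, 0.0569 and 0.0704) and in the fit that takes in the RIP (0.766). RN7SL3 had a log2 fold change of -0.0018 (adjusted p 0.994). Of the small nucleolar RNAs 2 rose and 6 fell of 98 tested, and of the small nuclear RNAs 2 rose of 33, so that 8.16% and 6.06% were called, against 32.3% of all genes. By edgeR 0 of 55 7SL pseudogenes and 0 of 22 7SK pseudogenes passed, with 3 and 1 at an unadjusted p under 0.05, and DESeq2 likewise called 0 of each.

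**Figure D3:**
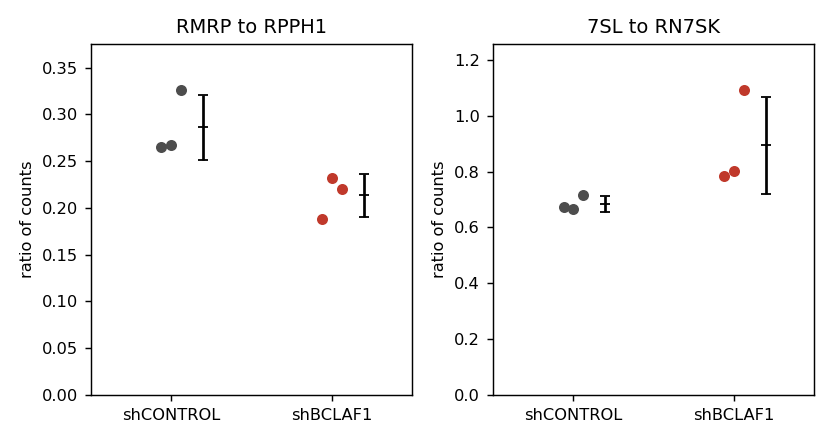
Ratio of RMRP to RPPH1 counts (left) and of summed RN7SL1 and RN7SL2 to RN7SK counts (right) in each RNA-seq library, with the mean and SD of 3 libraries beside the points. The RMRP ratio is lower and the 7SL ratio higher in every shBCLAF1 library than in any shCONTROL library.

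The genes across the shared stretches printed above are set beside their neighbours here. PARP2 measured 19.2 to 19.9 CPM in shCONTROL and 17.6 to 20.1 in shBCLAF1 (log2 fold change -0.03, adjusted p 0.788), and it was higher in the RIP at 57.04, 42.5 and 74.0 CPM (log2 fold change 1.56, SE 0.20, adjusted p 0.00147) where RPPH1 was low. CCDC107 measured 5.15, 4.25 and 3.35 CPM in shCONTROL and 6.50, 5.61 and 6.71 in shBCLAF1 without overlap, where RMRP was lower, but the difference did not pass (log2 fold change of 0.56 with SE 0.18, adjusted p 0.0591). In the RIP it measured 5.72 to 6.60 CPM (0.51, adjusted p 0.0853), where RMRP was at 19.0 to 109. CCDC107 passed under total counts (adjusted p 0.0438) and without shCONTROL replicate 1 (0.0330). RPS29, whose span holds RN7SL1, fell by 0.58 on the log2 scale after knock-down (adjusted p 0.00144), while RN7SL1 had a log2 fold change of 0.31 and did not pass. In the RIP, RPS29 was low, as RN7SL1 was, at 12.6, 10.1 and 15.2 CPM against 109 to 117 in shCONTROL (log2 fold change -3.16, adjusted p 2.03e-04). These 3 neighbours were added for their position, outside the rule for naming genes.

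The mRNAs of the proteins that bind these RNAs, and of the polymerase III machinery, were counted from lists of 71 genes in all. Protein levels were not measured. After knock-down 7 of the 71 were higher and 16 lower, or 32.4% called, close to the 32.3% of all genes tested. Higher genes made up 9.86% of the lists against 15.5% of all genes, and lower genes 22.5% against 16.9%. With total counts in place of TMM, 11 of the 71 were higher and 13 lower (15.5% and 18.3%), beside 19.1% and 14.7% of all genes, so the balance of directions depends on the scaling. In a single fit of all 9 libraries 11 of the 71 passed.

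Of 11 mRNAs of RNase P and MRP proteins, 1 was lower and 1 higher, or 9.09% each, beside 16.9% and 15.5% of all genes tested. POP1, the largest subunit of both enzymes, fell from 63.5 to 45.3 CPM on average (log2 fold change -0.48, SE 0.07, adjusted p 0.00386). POP5 rose slightly (log2 fold change 0.25, adjusted p 0.0488), a call lost when any library other than shBCLAF1 replicate 3 was left out (adjusted p 0.0668 to 0.138), with no filter on low counts (0.0667) and in the joint fit of 9 libraries (0.329). The median of the 11 was -0.10, against 0.02 for all genes.

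Of 7 genes of the 7SK complex and P-TEFb, HEXIM1 alone passed, or 14.3%, beside 32.3% of all genes tested. HEXIM1, which inhibits P-TEFb when bound to 7SK, measured 39.9, 39.5 and 41.0 CPM in shCONTROL and 48.8, 51.2 and 53.2 in shBCLAF1, so every knock-down library was higher (log2 fold change 0.35, SE 0.05, adjusted p 0.00351). LARP7, which protects the 3′ end of 7SK, had a log2 fold change of -0.20 (adjusted p 0.0963). The median of the 7 was 0.0029. In the joint fit of 9 libraries HEXIM1 missed the threshold (adjusted p 0.0711).

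Of 8 genes of the signal recognition particle and its receptor, 3 (37.5%) were lower and 0 higher, beside 16.9% and 15.5% of all genes tested. They were the receptor subunits SRPRB (log2 fold change -0.35, adjusted p 0.00876) and SRPRA (-0.27, adjusted p 0.0218) and the particle protein SRP72 (-0.24, adjusted p 0.0119). In the joint fit of 9 libraries none of these 3 passed (adjusted p 0.0956 to 0.317). SRPRA also lost its call without shCONTROL replicate 1 or 3 or shBCLAF1 replicate 2 (adjusted p 0.0710, 0.0736 and 0.0542). SRP54, the subunit that binds signal peptides, had a log2 fold change of 0.07 (adjusted p 0.309).

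Of 9 mRNAs of telomerase proteins, 4 (44.4%) were lower and 0 higher, beside 16.9% and 15.5% of all genes tested. DKC1, the pseudouridine synthase that binds TERC and H/ACA RNAs, fell from 142 to 108 CPM (log2 fold change -0.40, SE 0.04, adjusted p 0.00104), and its partner GAR1 fell from 28.2 to 19.8 CPM (-0.51, SE 0.09, adjusted p 0.00896). NAF1, an assembly factor of these complexes, had a log2 fold change of -0.29 (adjusted p 0.0307). TERT, the catalytic subunit, measured 12.4, 13.0 and 17.2 CPM in shCONTROL and 7.03, 6.04 and 10.3 in shBCLAF1, a log2 fold change of -0.86 with SE 0.23 (adjusted p 0.0351). Both NAF1 and TERT were fragile: NAF1 passed only without shCONTROL replicate 2 among the 6 fits with a library left out, and TERT only without shBCLAF1 replicate 3 (adjusted p otherwise 0.0577 to 0.0892 for NAF1 and 0.0645 to 0.110 for TERT). In the joint fit of 9 libraries NAF1 had an adjusted p of 0.159. TERT was named after its values were seen.

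The mRNAs of all 3 vault proteins rose, beside 15.5% of all genes tested. MVP, the major vault protein, measured 15.2, 16.3 and 15.3 CPM in shCONTROL and 32.3, 29.1 and 36.0 in shBCLAF1, a log2 fold change of 1.06 with SE 0.09 (adjusted p 6.24e-04). TEP1, which binds vault and telomerase RNA, rose from 65.4 to 136 CPM on average (log2 fold change 1.05, SE 0.06, adjusted p 2.35e-04). PARP4, the vault's ADP-ribosyltransferase, rose from 274 to 360 CPM (0.39, SE 0.05, adjusted p 0.00255). These calls held in each of the 11 alternatives run.

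Of 33 genes of the polymerase III machinery, 2 (6.06%) were higher and 8 (24.2%) lower, beside 15.5% and 16.9% of all genes tested. The median log2 fold change of the 33 was -0.08. SSB, or La, which binds the 3′ end of new polymerase III transcripts, fell from 104 to 68.3 CPM (log2 fold change -0.60, SE 0.05, adjusted p 4.52e-04). SNAPC3, a subunit of the complex that binds upstream promoters such as those of RN7SK, RMRP and RPPH1, fell from 41.1 to 27.6 CPM (-0.57, SE 0.05, adjusted p 8.35e-04), and MAF1, a repressor of the polymerase, fell from 256 to 190 CPM (-0.43, SE 0.05, adjusted p 0.00158). BRF2, the initiation factor of the same upstream promoters, rose from 15.8 to 27.9 CPM (0.82, SE 0.11, adjusted p 0.00245), as did CRCP, a polymerase subunit (0.28, adjusted p 0.0041, and 0.202 in the joint fit of 9 libraries); both were named after their values were seen. The list thus held members that differed in opposite directions.

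**Figure D4:**
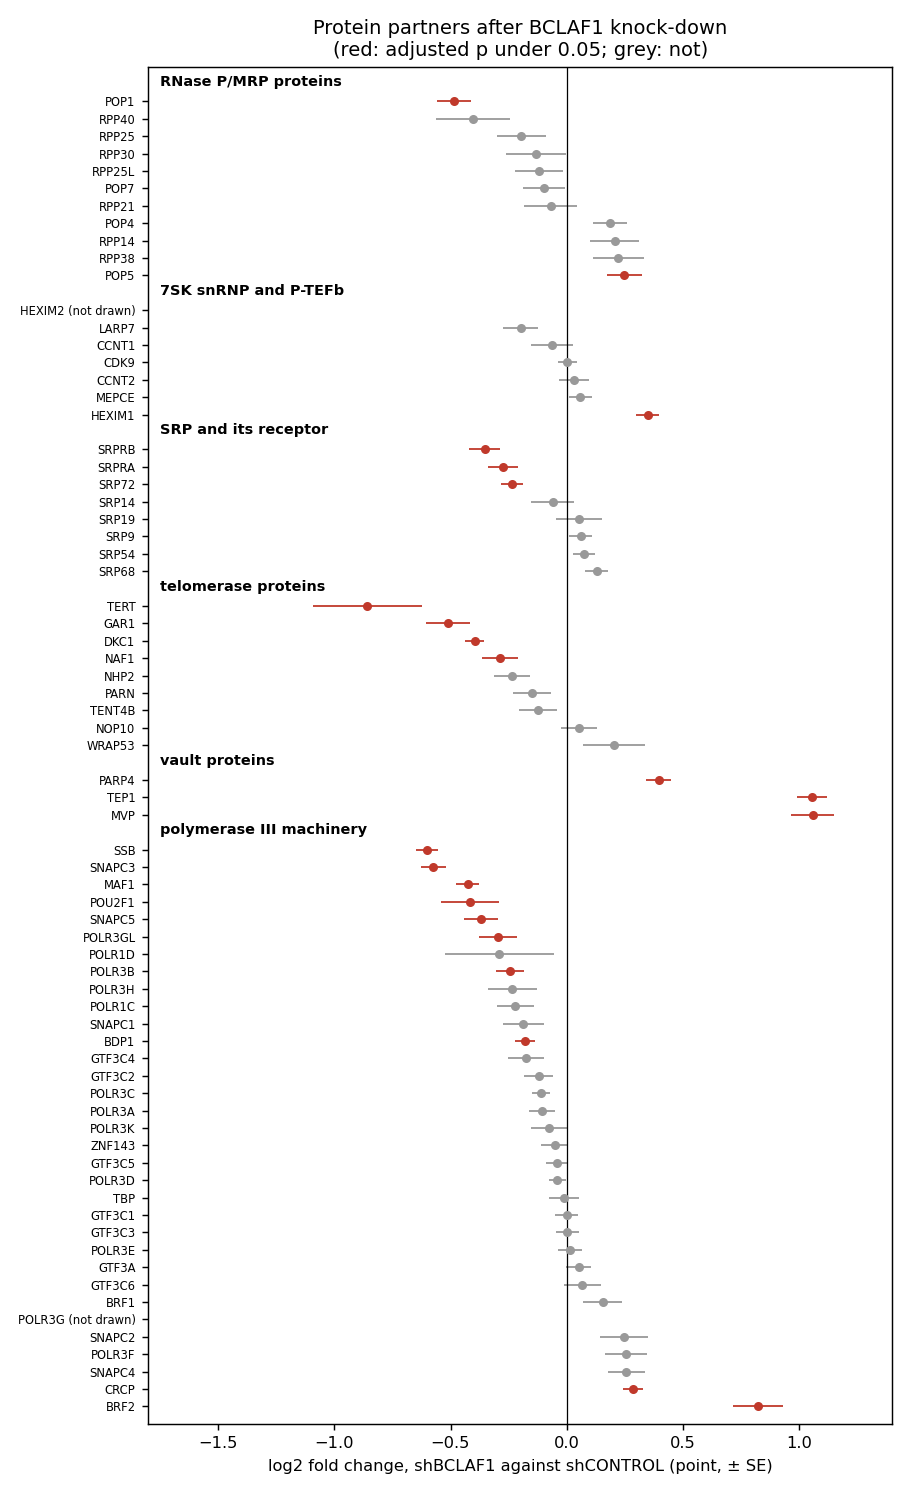
log2 fold change of shBCLAF1 against shCONTROL with its SE for the 71 partner genes, by list. Red points have an adjusted p under 0.05. The points for HEXIM2 and POLR3G, with an SE above 0.5, are not drawn, and the mRNAs of all 3 vault proteins lie to the right of 0.

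In the precipitation 15 of the 70 partner mRNAs tested were enriched and 6 depleted, or 21.4% and 8.57%, beside 11.0% and 13.5% of all genes. With total counts 10 were enriched and 7 depleted (14.3% and 10.0%), beside 8.79% and 15.7% of all genes. Among the mRNAs of 7SK proteins, LARP7 measured 41.2 to 45.4 CPM in shCONTROL and 108, 113 and 136 in the RIP (log2 fold change 1.45, SE 0.11, adjusted p 3.55e-04). HEXIM1 was also enriched (1.06, adjusted p 0.00131), though it was under the minimum of 1 with total counts (0.94), without RIP replicate 2 (0.92) and with shBCLAF1 averaged into the input (0.90). The mRNAs of LARP7 and HEXIM1 were thus above their shCONTROL levels in all 3 RIP libraries, while RN7SK itself overlapped its shCONTROL levels.

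The polymerase III list had 9 of 33 (27.3%) enriched and 0 depleted, beside 11.0% and 13.5% of all genes tested. The smallest adjusted p belonged to POLR3GL (log2 fold change 2.12, adjusted p 2.75e-04), GTF3C6 (1.51, adjusted p 4.27e-04) and POLR3A (1.07, adjusted p 5.24e-04). GTF3A, named after its values were seen, had the second highest fold of the 9 (1.59, adjusted p 0.00146). POLR3A was under the minimum with total counts (0.95) and just so without RIP replicate 2 (0.995). The telomerase list had DKC1 enriched (1.50, adjusted p 5.12e-04) and GAR1 (-1.18, adjusted p 5.80e-04) and NAF1 (-1.31, adjusted p 8.70e-04) depleted. With shBCLAF1 averaged into the input GAR1 stood at -0.91, short of the minimum. Of the mRNAs of RNase P and MRP proteins, RPP38 was enriched (1.38, adjusted p 0.00112) and RPP40 depleted (-1.83, adjusted p 0.00284).

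Of the 8 SRP genes 3 (37.5%) were depleted and 1 (12.5%) enriched, beside 13.5% and 11.0% of all genes tested. SRPRB was lowest (log2 fold change -2.08, adjusted p 2.85e-04), then SRP54 (-1.39, adjusted p 0.00105) and SRPRA (-1.08, adjusted p 0.00145), the last of which stood at -0.96 without RIP replicate 3 and -0.94 with shBCLAF1 averaged into the input. The enriched gene was SRP68 (1.06, adjusted p 0.00305), named after its values were seen, which was under the minimum with total counts (0.94) and without RIP replicate 3 (0.86). Of the mRNAs of the 3 vault proteins, PARP4 was enriched (1.20, adjusted p 6.64e-04), with 578, 580 and 727 CPM in the RIP against 269 to 285 in shCONTROL.

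The genes most like each RNA over the 9 libraries were found by Pearson's correlation of log2(CPM + 1), with no p, since the same libraries and their RIP and RNA-seq groups set most of it. RMRP was most like H4C3 (r = 0.998), the ribosomal protein pseudogene RPS7P1 (0.997) and RNY1 (0.997). RPPH1 was most like RN7SL3 (0.997), RN7SL1 (0.996) and RMRP (0.996). Both 7SL copies had RN7SL3 first, then each other, then the mitochondrial ribosomal protein gene MRPL54. RN7SK had lower values, with RFC2 (0.960), MRPS28 (0.952) and SURF1 (0.951), and TERC was most like NDUFB1 (0.996), PPCS (0.994) and SIVA1 (0.994). Over the 6 RNA-seq libraries alone, the values were 0.898 for RMRP and H4C3, 0.981 for RN7SL1 and RN7SL2, and 0.868 for TERC and NDUFB1. RN7SK kept 0.881 with RFC2 but had -0.271 with MRPS28 and -0.291 with SURF1. RPPH1 had -0.602 with RMRP, -0.311 with RN7SL3 and 0.00858 with RN7SL1. RN7SL1 and RN7SL2 had 0.346 and 0.425 with MRPL54, and 0.710 and 0.783 with RN7SL3. The likeness of RPPH1 to its 3 genes, and of RN7SK to MRPS28 and SURF1, was therefore not present within the RNA-seq libraries. That of the 7SL copies to MRPL54 was weaker there.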

How the data were processed

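Total RNA depleted of ribosomal RNA was sequenced as stranded paired ends of 50 bases, per the labels. As deposited, the table holds the authors' estimated counts, 1 value per gene and library, made from the reads with no scaling to depth. The submitters' processing notes name STAR 2.7.11b, StringTie 2.2.3 and hg38, without settings, and how reads matching several genes were shared is not given in the sources used here. An entry naming no gene (2.18% to 3.75% of counts in 8 libraries) was left out. The values are whole and needed no rounding.

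Each contrast was fitted over the whole table on its own 6 libraries with edgeR 4.0.16 in R 4.3.3 (default filter on low counts, TMM scaling, prior count 2, quasi-likelihood test, Benjamini-Hochberg threshold of 0.05, and for the RIP also a change of 1 or more on the log2 scale). The fits were also run on simulated data with a single spread for all genes and both contrasts. That spread was smaller than the common spread fitted in either contrast, so nothing is drawn from the simulation. CPM values are scaled by TMM over all 9 libraries. On that scale a count of 3 equals 0.0793 to 0.117 CPM and covers counting error only.

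The RNAs and gene lists were chosen with earlier results of these data known. Up to 3 genes per list were named, those with the smallest adjusted p, and related RNAs with a mean of at least 50 counts. DESeq2 1.42.0, total counts, no filter, a single fit, a replicate block and leaving out each library were the alternatives.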

Additional observations from a re-analysis of the deposited data

How the results depend on the processing

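The fitted direction of RMRP, RPPH1, RN7SK, RN7SL1 and RN7SL2 was the same in both contrasts under every alternative run, and that of TERC turned only without shBCLAF1 replicate 3 in the knock-down (-0.01). In a single fit of all 9 libraries, 2447 genes, 0 of the 6 RNAs and 11 partner genes passed after knock-down, against 5484, 1 and 23 in the fit of the RNA-seq libraries alone, with the RIP libraries' spread entering the estimate; DESeq2 called 2 of the 6, RMRP and RN7SK. Same-numbered libraries did not deviate together (correlations of -0.03 to 0.07), so numbers were not taken as pairs. With the replicate number as a block, 4809 genes, 1 of the 6 RNAs (RMRP, adjusted p 0.0164) and 22 partner genes passed. The replicate block thus changed no call among the 6 RNAs or the named genes it was run for. The number of RNAs at a RIP log2 fold change of -1 or less was 5 in every alternative. The likeness of RN7SL3 to RPPH1 was -0.31 over the 6 RNA-seq libraries. The cause of these differences was not tested. The near-identical 7SL copies, and RNAs this short, limit what a table of estimated counts can show: the values depend on which fragments were kept and how shared reads were split, and no counting interval covers either. With 3 libraries a group, no exact test can go below 0.1.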
